A study of Mus musculus with 24 samples.

Results

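Cells short of oxygen are known for switching on genes through the hypoxia-inducible factors (HIFs), and 10 mouse genes of that system were followed in ischemic liver. They are Hif1a, which encodes the oxygen-regulated HIF-1α subunit, and 9 genes known as HIF targets, Vegfa, Ak4, Pdk1, Egln1, Egln3, Bnip3, Slc2a1, Ldha and Pgk1. Members were taken by symbol through the RefSeq accession of each probe set, and 7 of the 10 had a named probe set, out of 14351 genes measured by name. Bnip3, a mitophagy receptor, Ldha, lactate dehydrogenase A, and Pgk1, phosphoglycerate kinase, are not analysed here. The 7 measured genes were read by 9 probe sets. Vegfa had 3 of these, which differed by at most 0.013 on the log2 scale on any array, so Vegfa is given by 1 of them.

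As background, prolyl hydroxylases use oxygen to mark the HIF-1α protein, the VHL ubiquitin ligase then binds the marked protein and the proteasome degrades it. When oxygen runs short the mark is not set, HIF-1α accumulates, pairs with ARNT and binds short DNA elements that hold the core ACGTG or GCGTG. Much of this control acts on the protein, which arrays do not measure, while the targets are read as messenger RNA.

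RNA came from the median and left lobes of mouse liver and was hybridized to 24 Affymetrix 3' arrays. The groups were adult mice of 12 to 14 months and young mice of 4 to 5 weeks, each after 30, 60 or 90 min of partial hepatic ischemia, an interruption of the blood supply to some lobes, or after a sham operation, with 3 arrays in each of the 8 groups. The titles add a 0 after each ischemia time, whose meaning the labels do not give, and strain, sex and genotype are not given in the sources used here. Each deposited value is a ratio to the mean sham value of that age, so a sham mean is 1 by construction, no comparison of adult with young sham is possible, and the level of a gene or of a liver marker cannot be read.

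The promoter windows of 4 measured members are printed because they show where the core letters of HIF elements stand near a start, and they differ in how many matches they hold. Each runs from 250 bases before to 50 bases after an annotated start (RefSeq, build GRCm38.p6), 5′ to 3′ on the gene's strand. Capitals mark every ACGTG or GCGTG, searched on both strands, so that a match on the other strand reads CACGT or CACGC. The Slc2a1 window is chr4:119108495-119108794 on the plus strand, the Egln1 window chr8:124949205-124949504, the Egln3 window chr12:54203825-54204124 and the Vegfa window chr17:46032328-46032627, the last 3 on the minus strand.
Slc2a1: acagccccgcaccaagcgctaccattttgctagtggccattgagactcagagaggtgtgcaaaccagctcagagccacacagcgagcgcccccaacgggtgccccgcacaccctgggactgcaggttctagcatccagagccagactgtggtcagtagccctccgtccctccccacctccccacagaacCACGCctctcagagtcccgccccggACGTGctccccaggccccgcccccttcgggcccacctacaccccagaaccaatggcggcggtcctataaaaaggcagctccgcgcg
Egln1: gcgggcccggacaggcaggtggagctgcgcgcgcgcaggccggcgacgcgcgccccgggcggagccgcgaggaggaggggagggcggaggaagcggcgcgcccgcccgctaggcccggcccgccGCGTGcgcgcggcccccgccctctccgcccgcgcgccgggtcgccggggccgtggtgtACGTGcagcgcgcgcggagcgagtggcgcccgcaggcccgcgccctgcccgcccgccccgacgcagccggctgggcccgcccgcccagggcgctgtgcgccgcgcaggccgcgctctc
Egln3: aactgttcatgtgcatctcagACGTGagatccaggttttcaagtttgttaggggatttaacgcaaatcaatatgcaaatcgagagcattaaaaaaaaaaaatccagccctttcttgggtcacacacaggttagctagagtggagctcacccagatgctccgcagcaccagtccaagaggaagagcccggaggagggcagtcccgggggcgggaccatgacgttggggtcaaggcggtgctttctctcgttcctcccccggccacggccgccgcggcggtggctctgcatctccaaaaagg
Vegfa: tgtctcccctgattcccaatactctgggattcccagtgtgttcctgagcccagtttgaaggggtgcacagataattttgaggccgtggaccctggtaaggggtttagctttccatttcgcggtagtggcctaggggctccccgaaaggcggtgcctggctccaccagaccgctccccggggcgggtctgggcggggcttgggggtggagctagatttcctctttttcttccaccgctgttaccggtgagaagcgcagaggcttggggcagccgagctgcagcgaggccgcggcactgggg

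The Slc2a1 window held GCGTG on the other strand at -61 and ACGTG at -36 from the start, and the Egln1 window held GCGTG at -126 and ACGTG at -68. Egln3 had a single ACGTG at -229, while the Vegfa window printed here held neither core. A second Vegfa window, chr17:46025114-46025413, held GCGTG at -218 and ACGTG on the other strand at -211. Over all windows of a gene, ACGTG was found for 6 of the 7 measured members, all but Pdk1, and either core for 7 of 7. Vegfa counts there only through its second window, which lies inside the gene. Among the 11387 measured genes with a window, 26.9% held ACGTG, 49.4% held GCGTG and 61.0% held either, so a match of either kind is common. These genes had 14469 windows, and the number of windows per gene was not matched between members and all genes. CACGTG reads the same on both strands and counts once on each. A match describes the letters and is not a binding site. On GRCm38.p6, the genes span chr12:73901324-73947554 (Hif1a), chr8:124908587-124949254 (Egln1), chr12:54178981-54203874 (Egln3), chr17:46016993-46032377 (Vegfa), chr4:119108745-119137330 (Slc2a1), chr2:71873215-71903858 (Pdk1) and chr4:101416478-101467771 (Ak4).

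None of the 7 members passed the test in any comparison of ischemic with sham liver at either age. The test was limma on log2 ratios over all 14351 genes, with an adjusted p under 0.05 (Benjamini-Hochberg within a comparison) as the threshold. In the adult comparisons 0 of 7 members passed at 30, 60 and 90 min, against 0%, 11.9% and 7.45% of all genes. In young livers 0 of 7 passed at each time, against 0.0557%, 0.0279% and 0.181% of all genes. Taking the 3 times together, 0 of 7 passed in adult livers (10.7% of all genes) and 0 of 7 in young livers (0.404%). At an unadjusted p under 0.05 stood 1, 2 and 1 members in adult livers at 30, 60 and 90 min and 0, 1 and 1 in young livers. The shares of all genes there were 10.4%, 33.3% and 28.6% in adult and 8.36%, 10.4% and 9% in young livers.

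The targets are known for rising under low oxygen, but most values of the 7 members here lay below sham. Hif1a, set apart from the targets above, is counted among the 7. Of the 42 values, 7 genes at 3 times in 2 ages, 37 were below 0 on the log2 scale and 5 above. The 95% intervals from limma lay wholly below 0 for 5 values, wholly above 0 for 1, Vegfa in young livers at 90 min, and held 0 for 36. All Hif1a values lay below 0, and the 5 intervals below 0 include those of Hif1a in adult livers at 60 and 90 min. The highest upper bound was 0.54, a 1.46-fold rise, and the lowest lower bound was -0.97, a ratio of 0.512, both for Egln3 in adult livers. The members' median change was -0.20, -0.31 and -0.21 in adult livers at 30, 60 and 90 min, beside -0.031, -0.055 and -0.039 for all genes. In young livers it was -0.11, -0.27 and -0.11, beside -0.024, -0.022 and -0.024 for all genes. These medians moved with the processing: quantile normalization gave -0.12, -0.14 and -0.082 in adult and -0.074, -0.17 and -0.048 in young livers. Without the first adult sham array the adult medians were -0.10, -0.23 and -0.061. Without the third young sham array the young medians were -0.022, -0.16 and 0.017, so the sign at 90 min turned and 3 of 7 members, in place of 5, lay below 0 there. A share of 56.5% to 58.7% of all genes lay below 0 in adult livers, and 55.3% to 57.6% in young livers. As these are whole pieces of liver, fewer cells of a type and less RNA per cell cannot be told apart.

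**Figure D1:**
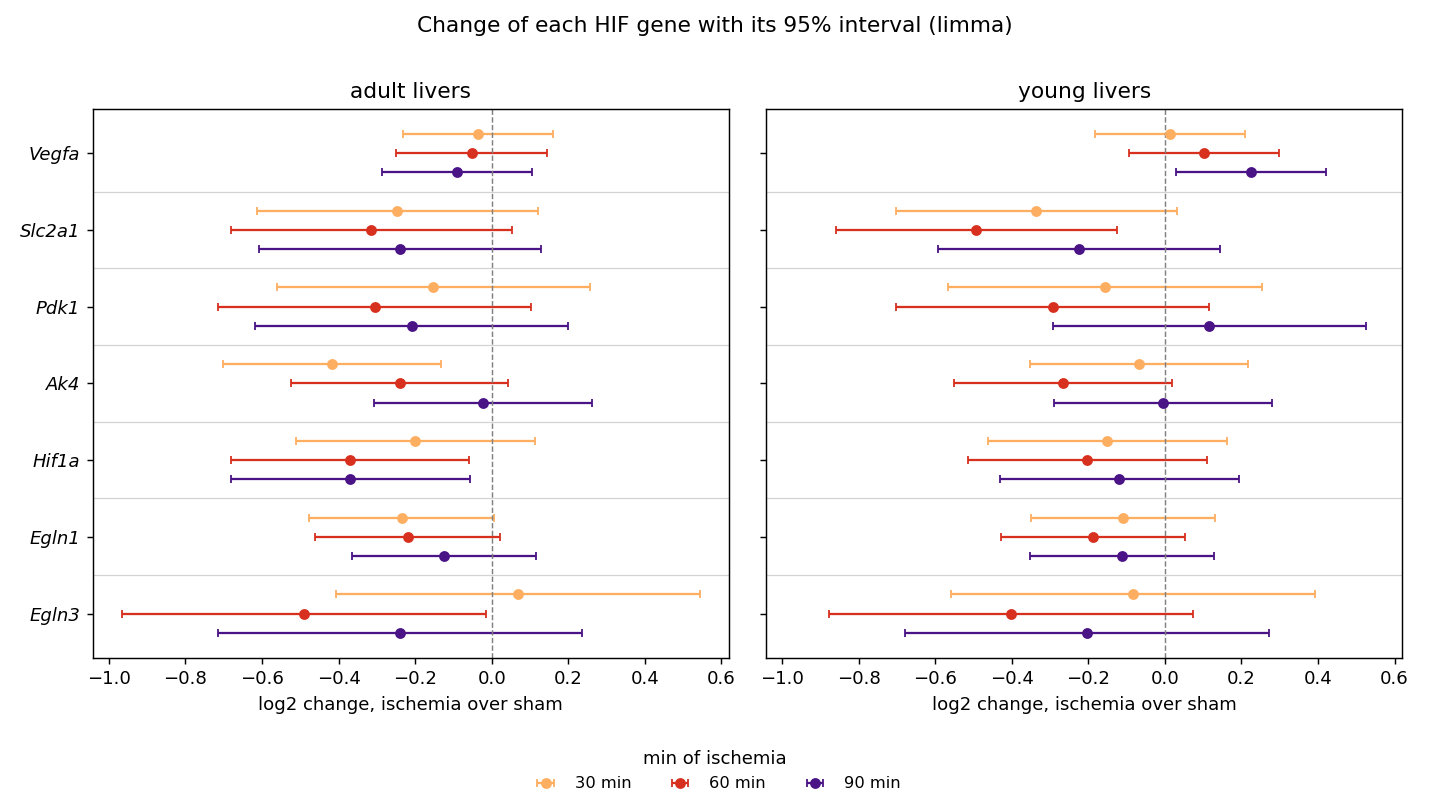
Change of each member as log2 of ischemia over sham (x axis) for adult livers (left) and young livers (right), at 30, 60 and 90 min. Points are limma estimates and bars their 95% intervals; 36 of 42 intervals hold 0, and the 1 interval wholly above 0 is Vegfa in young livers at 90 min.

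A pair of arrays stood apart over all genes. With array weights estimated by limma, the third array of adult livers after 30 min had a weight of 0.254, against 4.38 for the second of its group, and the third young sham array had 0.332. Changes against sham at each time that rest on them are also given without them. The series' design gives 3 mice per group and the labels do not tie each array to a mouse, so the p-values measure the spread between arrays.

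Hif1a, the oxygen-regulated subunit itself, had ratios of 0.937, 0.887 and 1.18 on the 3 sham arrays, 0.741, 0.757 and 1.15 after 30 min, 0.829, 0.771 and 0.708 after 60 min and 0.790, 0.758 and 0.758 after 90 min in adult livers. All adult arrays after 60 and 90 min lay below all sham arrays, whereas after 30 min the third array was close to the highest sham array. The log2 change in adult livers was -0.20 ± 0.15 at 30 min (SE, n = 3 per group; limma adjusted p = 0.604), -0.37 ± 0.15 at 60 min (adjusted p = 0.0945) and -0.37 ± 0.15 at 90 min (adjusted p = 0.116). Over the 3 adult times together it was -0.31 ± 0.12 (limma adjusted p = 0.0855). Leaving out the third array after 30 min gave -0.41 at that time (adjusted p = 0.0879), and -0.38 over the 3 times with an adjusted p of 0.0111, which is past the threshold. Over the 3 times that fit called 3913 of all 14351 genes. With array weights Hif1a also passed in adult livers at each time (adjusted p = 0.0365, 0.0491 and 0.0399 at 30, 60 and 90 min). The weighted fit called 2259, 3306 and 3073 of all 14351 genes at these times, so many other genes passed there too. None of these Hif1a calls stands in the unweighted fit to all 24 arrays.

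In young livers Hif1a had ratios of 0.870, 0.929 and 1.20 on the 3 sham arrays, 0.895, 0.867 and 0.916 after 30 min, 0.804, 0.814 and 0.974 after 60 min and 1.03, 0.862 and 0.852 after 90 min. The groups overlapped at each time, and the third sham array was the highest of the 12. The young log2 changes were -0.15, -0.20 and -0.12 at 30, 60 and 90 min (limma adjusted p = 0.808, 0.625 and 0.913). Without the third young sham array they were -0.011, -0.063 and 0.020. The adult response minus the young response was -0.049, -0.17 and -0.25 ± 0.21 at the 3 times, and none of these differences passed in limma (adjusted p = 1.00, 0.832 and 0.611).

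Egln1 encodes PHD2, the hydroxylase that sets most of the oxygen-dependent mark on HIF-1α, and is itself a HIF target that acts as a brake. Its ratios in adult livers were 1.22, 0.897 and 0.887 on the 3 sham arrays, 0.943, 0.839 and 0.749 after 30 min, 0.862, 0.860 and 0.826 after 60 min and 0.986, 0.835 and 0.909 after 90 min. All 3 adult arrays after 60 min lay below all sham arrays, while 1 array after 30 min and 2 after 90 min lay within the sham range. The adult log2 changes were -0.24, -0.22 and -0.12 (SE 0.12; limma adjusted p = 0.488, 0.191 and 0.489). They rested on the first sham array, 1.22, without which they were -0.086, -0.071 and 0.025, and without the third array after 30 min the value at that time was -0.15. Young livers gave 0.934, 1.03 and 1.04 on the 3 sham arrays, 0.921, 0.901 and 0.955 after 30 min, 0.786, 0.859 and 0.998 after 60 min and 0.980, 0.848 and 0.949 after 90 min. There the groups overlapped at each time, and the log2 changes were -0.11, -0.19 and -0.11. Leaving out the third young sham array gave -0.081, -0.16 and -0.083. Ages differed by -0.13, -0.031 and -0.012 (adult minus young), with none past the threshold in limma.

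Egln3 encodes PHD3, a hydroxylase of the same family that is known as a strongly oxygen-responsive HIF target. Adult livers gave ratios of 1.30, 0.884 and 0.814 on the 3 sham arrays, 0.809, 0.767 and 1.74 after 30 min, 0.605, 0.831 and 0.671 after 60 min and 0.843, 0.914 and 0.742 after 90 min. Single arrays set the spread here, with 1.30 on the first sham array and 1.74 on the third array after 30 min. The adult log2 changes were 0.069 ± 0.23 at 30 min, -0.49 ± 0.23 at 60 min and -0.24 ± 0.23 at 90 min (SE, n = 3 per group; limma adjusted p = 0.911, 0.138 and 0.502). Without the third array after 30 min the value at 30 min turned to -0.31 (adjusted p = 0.258). The only mean above sham for Egln3 therefore came from 1 array.

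Young livers had Egln3 ratios of 0.926, 0.950 and 1.12 on the 3 sham arrays, 1.08, 0.984 and 0.783 after 30 min, 0.743, 0.803 and 0.719 after 60 min and 0.975, 0.805 and 0.826 after 90 min. All 3 arrays after 60 min lay below all sham arrays, and the other times overlapped with sham. The young log2 changes were -0.083, -0.40 and -0.20, with limma adjusted p of 0.94, 0.546 and 0.894. Leaving out the third young sham array gave 0.0037, -0.32 and -0.12. In both ages the lowest mean ratio of Egln3 was at 60 min, 0.702 ± 0.116 in adult and 0.755 ± 0.0432 in young livers (SD, n = 3 each). The difference between ages was 0.15, -0.089 and -0.035 and did not pass at any time.

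Among the targets, Vegfa, the growth factor that drives new vessel formation, was the only member with an interval above sham. Young livers gave ratios of 1.01, 1.04 and 0.955 on the 3 sham arrays, 0.934, 1.03 and 1.07 after 30 min, 1.10, 1.11 and 1.01 after 60 min and 1.26, 1.11 and 1.14 after 90 min. All 3 arrays after 90 min lay above all sham arrays, as did 4.45% of all genes at that age and time. The young log2 changes were 0.014, 0.10 and 0.23 ± 0.094 (SE, n = 3 per group; 95% interval at 90 min 0.029 to 0.42). The value at 90 min had an unadjusted p of 0.0264 and an adjusted p of 0.439 in limma, so it did not pass. Without the third young sham array the changes were -0.019, 0.069 and 0.19 (adjusted p = 0.668 at 90 min). Against 30 min, the young 90 min value was higher by 0.21 ± 0.094 (limma adjusted p = 0.982).

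In adult livers Vegfa stood at 1.04, 0.959 and 1.00 on the 3 sham arrays, 0.930, 0.888 and 1.12 after 30 min, 0.994, 1.03 and 0.872 after 60 min and 0.916, 0.883 and 1.02 after 90 min. The ischemic arrays spread around sham at 30 and 60 min, and 2 of the 3 arrays after 90 min lay below the sham range. The adult log2 changes were -0.037, -0.053 and -0.090 (SE 0.094). Without the third array after 30 min the value at that time was -0.14. At 90 min the adult response minus the young one was -0.32 ± 0.13 (95% interval -0.59 to -0.038; unadjusted p = 0.0279, limma adjusted p = 0.431). It was the largest of the 21 age differences per its error and the only one with an unadjusted p under 0.05. Without the third young sham array it was -0.28 (adjusted p = 0.278), with array weights it passed (adjusted p = 0.0449), and over all alternatives its adjusted p ran from 0.0449 to 0.856. The weighted fit called 1445 of all 14351 genes for this difference. Comparing ages without weights, 0% of all genes passed at 30, 60 or 90 min, and 0 of 7 members did, while 2.10%, 6.81% and 11.2% of all genes had an unadjusted p under 0.05.

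**Figure D2:**
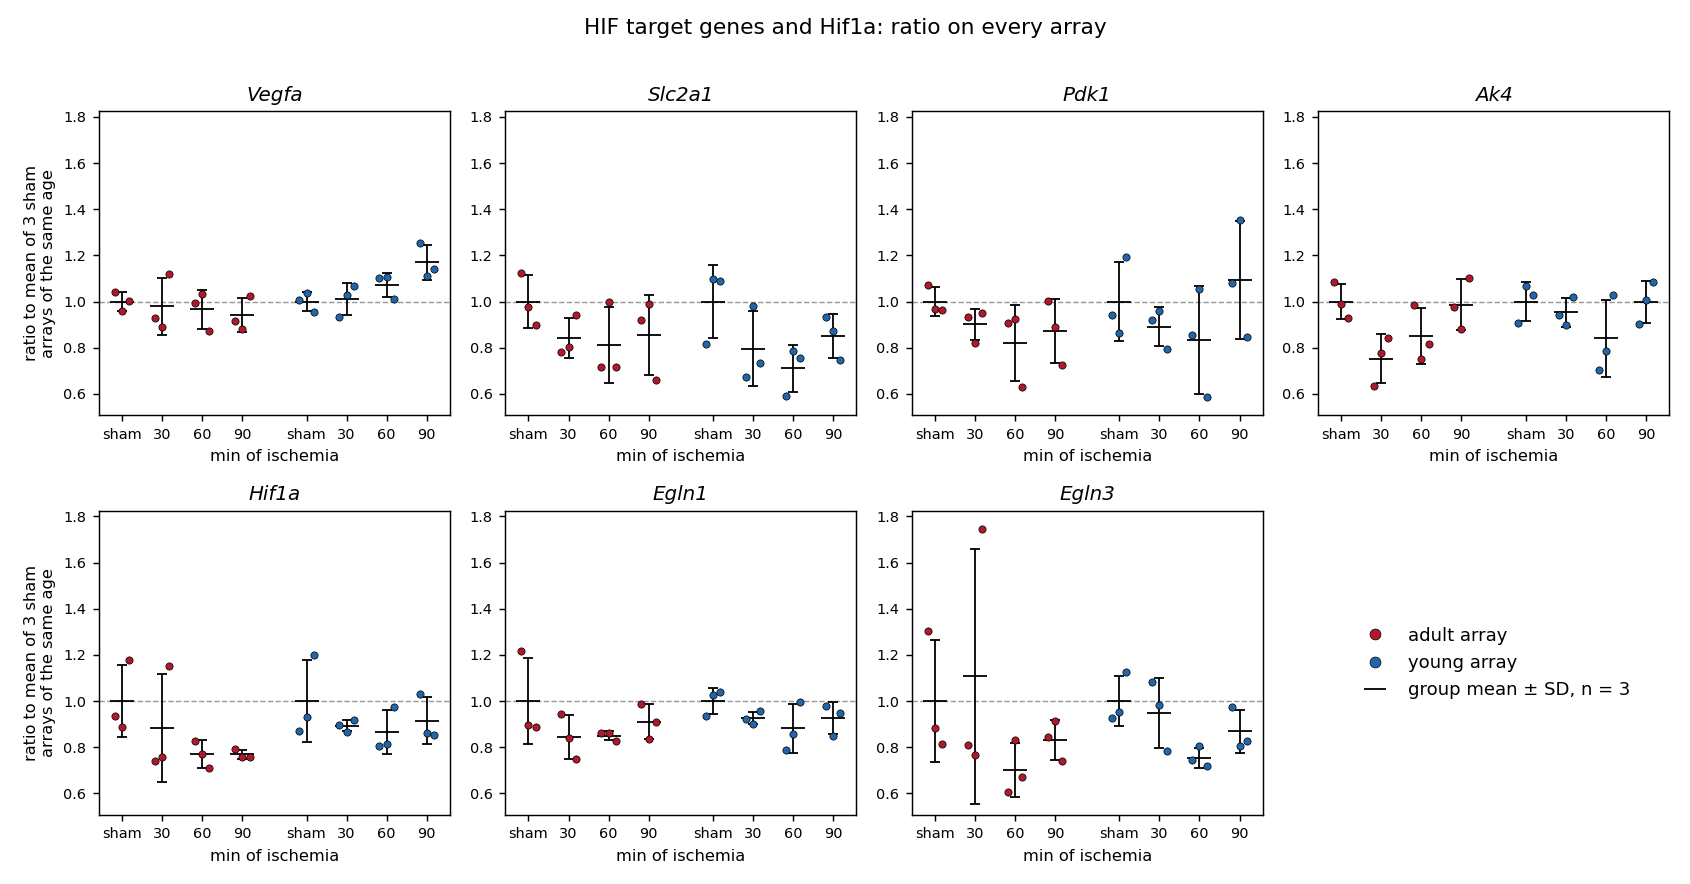
Ratio to the sham mean of the same age (y axis, linear) of each of the 7 measured members, with 1 point per array, a line at the group mean and bars of 1 SD (n = 3), for adult and young livers in the order sham, 30, 60 and 90 min. Vegfa in young livers after 90 min lies above its sham arrays, Hif1a in adult livers after 60 and 90 min lies below them, and the 1.74 of Egln3 is the third adult array after 30 min.

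Slc2a1 encodes GLUT1, the glucose carrier that HIF raises in many tissues and that hepatocytes hold little of. Ratios in young livers were 0.815, 1.10 and 1.09 on the 3 sham arrays, 0.675, 0.979 and 0.733 after 30 min, 0.592, 0.784 and 0.753 after 60 min and 0.932, 0.874 and 0.748 after 90 min. All 3 young arrays after 60 min lay below the sham arrays, as did those of 7.78% of all genes, with Egln3 the only other member among them. The young log2 changes were -0.34 ± 0.18, -0.49 ± 0.18 and -0.23 ± 0.18 (SE, n = 3 per group; limma adjusted p = 0.637, 0.372 and 0.806). The interval at 60 min, -0.86 to -0.12, lay below 0. Without the third young sham array the changes were -0.27, -0.42 and -0.16 (adjusted p = 0.761 at 60 min).

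In adult livers the same gene had ratios of 1.12, 0.978 and 0.900 on the 3 sham arrays, 0.782, 0.802 and 0.943 after 30 min, 0.718, 1.00 and 0.716 after 60 min and 0.920, 0.990 and 0.659 after 90 min. Each ischemia time had at least 1 array within the sham range. The adult log2 changes were -0.25, -0.31 and -0.24, and the age differences of 0.089, 0.18 and -0.014 did not pass in limma. The highest upper bound of Slc2a1 in either age was 0.14, the lowest among the members after the 0.13 of Egln1. Without the third array after 30 min the adult value at that time was -0.33.

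Pdk1 encodes a kinase that shuts off pyruvate dehydrogenase and so keeps pyruvate from being oxidized in mitochondria. Adult livers gave 1.07, 0.968 and 0.961 on the 3 sham arrays, 0.932, 0.821 and 0.948 after 30 min, 0.907, 0.923 and 0.630 after 60 min and 1.00, 0.891 and 0.723 after 90 min. All arrays after 30 and 60 min lay below the sham arrays, although the distance at 30 min was small, and 1 array after 90 min lay within the sham range. The adult log2 changes were -0.15, -0.31 and -0.21 (SE 0.20; limma adjusted p = 0.755, 0.284 and 0.493). Without the third array after 30 min the value at that time was -0.19.

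Young livers had Pdk1 ratios of 0.941, 0.865 and 1.19 on the 3 sham arrays, 0.921, 0.958 and 0.796 after 30 min, 0.854, 1.05 and 0.587 after 60 min and 1.08, 1.35 and 0.847 after 90 min. Arrays after 60 and 90 min spread more widely than sham, and the groups overlapped at each time. The young changes were -0.16, -0.29 and 0.12 with an interval of -0.29 to 0.53 at 90 min, which holds both a rise and a fall. The values were -0.022, -0.16 and 0.25 without the third young sham array. Adult minus young was -0.33 ± 0.28 at 90 min (limma adjusted p = 0.613).

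Ak4 encodes a mitochondrial adenylate kinase, which HIF is known to raise. In adult livers its ratios were 1.08, 0.989 and 0.929 on the 3 sham arrays, 0.636, 0.778 and 0.844 after 30 min, 0.984, 0.753 and 0.814 after 60 min and 0.975, 0.881 and 1.10 after 90 min. The 3 arrays after 30 min lay below all sham arrays, and by 90 min they spread around sham again. The adult log2 changes were -0.42 ± 0.14 at 30 min, -0.24 ± 0.14 at 60 min and -0.023 ± 0.14 at 90 min (SE, n = 3 per group). The change at 30 min had the lowest unadjusted p of all 42 values, 0.00615, with an adjusted p of 0.411 in limma. Without the third array of that group it was -0.50 (adjusted p = 0.0714), and with array weights it passed (adjusted p = 0.0209). The weighted fit called 2259 of all 14351 genes at that time. At 90 min the adult value was 0.39 ± 0.14 above that at 30 min (limma adjusted p = 0.564).

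Young livers had Ak4 ratios of 0.907, 1.07 and 1.03 on the 3 sham arrays, 0.939, 0.899 and 1.02 after 30 min, 0.704, 0.788 and 1.03 after 60 min and 0.904, 1.01 and 1.08 after 90 min. Here 60 min was the lowest group mean, with 2 of its 3 arrays below the sham range. The young log2 changes were -0.068, -0.27 and -0.0038. They were -0.047, -0.25 and 0.017 without the third young sham array. The age difference at 30 min was -0.35 ± 0.19 (limma adjusted p = 1.00). It was -0.37 without the third young sham array and -0.44 without the third adult array after 30 min.

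Counted over members, the adult arrays lay wholly below sham for Ak4 and Pdk1 at 30 min, for Pdk1, Egln1 and Hif1a at 60 min and for Hif1a at 90 min. The same held for 6.29%, 25.9% and 26.4% of all genes. The 1 of 7 at 90 min is no more than the share of all genes, and 2 or 3 of 7 are too few genes to be set apart from theirs. The members' errors differed by gene: the SE of a change was 0.094 for Vegfa, 0.12 for Egln1, 0.14 for Ak4, 0.15 for Hif1a, 0.18 for Slc2a1, 0.20 for Pdk1 and 0.23 for Egln3. Vegfa and Egln1 thus had the narrowest intervals, and Egln3 and Pdk1 the widest. The highest upper bounds followed another order. They were 0.13 for Egln1, 0.14 for Slc2a1, 0.19 for Hif1a, 0.28 for Ak4, 0.42 for Vegfa, 0.53 for Pdk1 and 0.54 for Egln3.

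The members' mean log2 ratio per array was 0.14, -0.095 and -0.079 on the adult sham arrays, -0.29, -0.31 and 0.050 after 30 min, -0.27, -0.19 and -0.43 after 60 min and -0.13, -0.19 and -0.27 after 90 min. Young livers gave -0.13, -0.010 and 0.12 for sham, -0.15, -0.083 and -0.17 after 30 min, -0.35, -0.19 and -0.23 after 60 min and 0.025, -0.051 and -0.13 after 90 min. All 3 arrays lay below all sham arrays of their age after 60 and 90 min in adult and after 60 min in young livers. Of all genes taken singly, 25.9%, 26.4% and 7.78% did so in the same order, and a share for means of 7 genes was not computed. The lowest group mean of the members was at 60 min in both ages.

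Across the 24 arrays the members moved together only in part. Over the 21 pairs, Pearson's r of log2 ratios was highest for Egln3 with Hif1a (0.58), Egln3 with Slc2a1 (0.57), Ak4 with Egln1 (0.54) and Pdk1 with Slc2a1 (0.51), and lowest for Vegfa with Slc2a1 (-0.0022). After subtraction of group means these 4 pairs had 0.50, 0.53, 0.31 and 0.41. These arrays share 8 groups and 2 sham scalings, and the coefficients are descriptions.

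The genes most like the mean of the members over the same 24 arrays were Pon2 (r = 0.93), Pkp2 (0.92), Ccdc22 (0.92), Pex13 (0.91) and Marchf8 (0.90). For single members the most alike gene was Ccnl1 for Vegfa (0.86), Med12 for Ak4 (0.82), Slc25a1 for Pdk1 (0.88), Cryl1 for Egln1 (0.81), Ccnd3 for Egln3 (0.82), Vamp7 for Slc2a1 (0.83) and Psmc1 for Hif1a (0.96). None of these is another member, and they were picked as the highest coefficients over the 14351 genes tested.

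Other genes of the HIF system were taken from 6 lists, of which 93 of 102 genes were measured: 15 of 15 subunits and regulators, 14 of 17 glucose and glycolysis targets, 8 of 9 mitochondrial, autophagy and growth targets, 15 of 16 vessel, blood and iron targets, 20 of 22 matrix, pH and other targets, and 21 of 23 relatives of the members. In young livers 0 of 93 passed at each time, beside 0.0557%, 0.0279% and 0.181% of all genes at 30, 60 and 90 min. In adult livers 0 passed at 30 min, where 0% of all genes did. At 60 min 10 fell and 1 rose in adult livers, and at 90 min 7 fell and 0 rose. The falls made up 10.8% of the 93 at 60 min and 7.53% at 90 min, beside 9.78% and 6.28% of all genes, and the rise 1.08% beside 2.15%. These shares lie near those of all genes. The median change of the 93 was -0.099 at 60 min and -0.054 at 90 min, beside -0.055 and -0.039 for all genes.

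Within the subunits and regulators, 4 of 15 fell in adult livers at 60 min, where 9.78% of all genes did. The 4 are Eloc, Elob, Rbx1 and Cul2, each known as a part of the VHL ubiquitin ligase; these parts were not a list of their own and no test bears on them together. Eloc, its elongin C, had ratios of 0.668, 0.675 and 0.567 after 60 min and 0.690, 0.715 and 0.584 after 90 min, against 0.949, 1.02 and 1.03 in adult sham livers. It changed by -0.66 ± 0.17 at 60 min (SE, n = 3 per group; limma adjusted p = 0.0305) and -0.60 at 90 min (adjusted p = 0.0375). Elob, elongin B, had 0.788, 0.635 and 0.593 at 60 min against 0.901, 1.02 and 1.08 in sham, a change of -0.58 ± 0.18 (adjusted p = 0.0447). The arrays of the 2 groups did not overlap for either gene at 60 min, where 25.9% of all genes lay wholly below sham.

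Rbx1, the RING subunit, stood at 0.840, 0.777 and 0.595 at 60 min against 0.975, 1.02 and 1.00 in sham (-0.45 ± 0.15; limma adjusted p = 0.0486). Cul2, the cullin scaffold, stood at 0.714, 0.820 and 0.783 against 1.00, 1.00 and 0.996 (-0.37 ± 0.12; adjusted p = 0.0481). Eloc, Elob and Rbx1 also serve other ligases. Vhl, the subunit that recognises HIF-1α and is named here for that role after its values were seen, had 0.947, 0.780 and 1.04 against 1.05, 0.898 and 1.05 and did not pass (-0.12; adjusted p = 0.484). Chosen in the same way, Arnt had -0.10, Epas1, which encodes HIF-2α, 0.13, and Egln2, another HIF prolyl hydroxylase, -0.0024 at 60 min, none past the threshold.

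Of the glucose and glycolysis targets, Tpi1, triosephosphate isomerase, fell in adult livers at 60 min (-0.67 ± 0.18; limma adjusted p = 0.0338) and 90 min (-0.68; adjusted p = 0.0359). Its ratios were 0.769, 0.630 and 0.509 and then 0.652, 0.654 and 0.575, against 0.961, 1.02 and 1.02 in sham. Gys1, glycogen synthase of muscle and other tissues, was the 1 gene that rose, with 1.21, 1.41 and 1.52 at 60 min against 0.921, 1.25 and 0.829 in sham (0.48 ± 0.14; adjusted p = 0.0403). A sham array of 1.25 lay within the ischemic range of Gys1.

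Among mitochondrial and autophagy targets, Bnip3l, the relative of Bnip3 that also tags mitochondria for removal, had adult ratios of 1.13, 0.913 and 0.955 on the 3 sham arrays, 0.615, 0.721 and 0.814 after 30 min, 0.815, 0.664 and 0.577 after 60 min and 0.707, 0.627 and 0.661 after 90 min. All 9 ischemic adult arrays lay below the 3 sham arrays. At 30, 60 and 90 min taken singly, 6.29%, 25.9% and 26.4% of all genes lay wholly below adult sham. The share for all 9 arrays was not computed. It fell by 0.55 ± 0.14 at 60 min (limma adjusted p = 0.0301) and by 0.58 at 90 min (adjusted p = 0.0234), while the young values of -0.32, -0.36 and -0.34 did not pass. Higd1a, a hypoxia-induced protein of the mitochondrial inner membrane, stood at 0.521, 0.797 and 0.695 after 60 min against 1.02, 0.957 and 1.02 in sham. It fell at 60 min (-0.60 ± 0.16; adjusted p = 0.0319) and at 90 min (-0.54; adjusted p = 0.0456).

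The remaining adult calls were Rora, a nuclear receptor, at 60 min (-0.74 ± 0.18; limma adjusted p = 0.0298), Ero1a, an oxidase of protein folding, at 90 min (-0.85 ± 0.24; 0.0423), and Hmox1, heme oxygenase 1, at 90 min (-0.67 ± 0.19; 0.0408). Of the members' relatives, Ak3, a mitochondrial adenylate kinase like Ak4, fell at 60 min (-0.47 ± 0.12; adjusted p = 0.0319). Pdha1, the subunit of pyruvate dehydrogenase that Pdk1 phosphorylates, fell at 60 min (-0.55 ± 0.16; 0.0394) and 90 min (-0.61; 0.0333). Over the 3 adult times together 8 of the 93 fell, 8.60% beside 8.58% of all genes, among them Bnip3l, Eloc and Tpi1. For none of these 13 genes did the adult response differ from the young one past the threshold, for example -0.27 ± 0.23 for Eloc at 60 min (limma adjusted p = 0.759). In that comparison of ages 0% of all genes passed at 30, 60 or 90 min.

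In young livers, over the 3 times together, Crebbp, a coactivator that HIF recruits, was the 1 of 93 that rose, against 0.111% of all genes, and it was chosen after its values were seen. Its ratios were 1.12, 1.02 and 0.861 on the 3 sham arrays, 1.45, 1.33 and 1.68 after 30 min, 1.67, 1.71 and 1.70 after 60 min and 1.68, 2.76 and 1.67 after 90 min. All 9 ischemic arrays lay above the sham arrays, with a change of 0.78 ± 0.17 (limma adjusted p = 0.0442). At 30, 60 and 90 min taken singly, 5.31%, 5.54% and 4.45% of all genes lay wholly above young sham. The share for all 9 arrays was not computed. The call held in 1 of 12 fits that each left out an array.

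**Figure D3:**
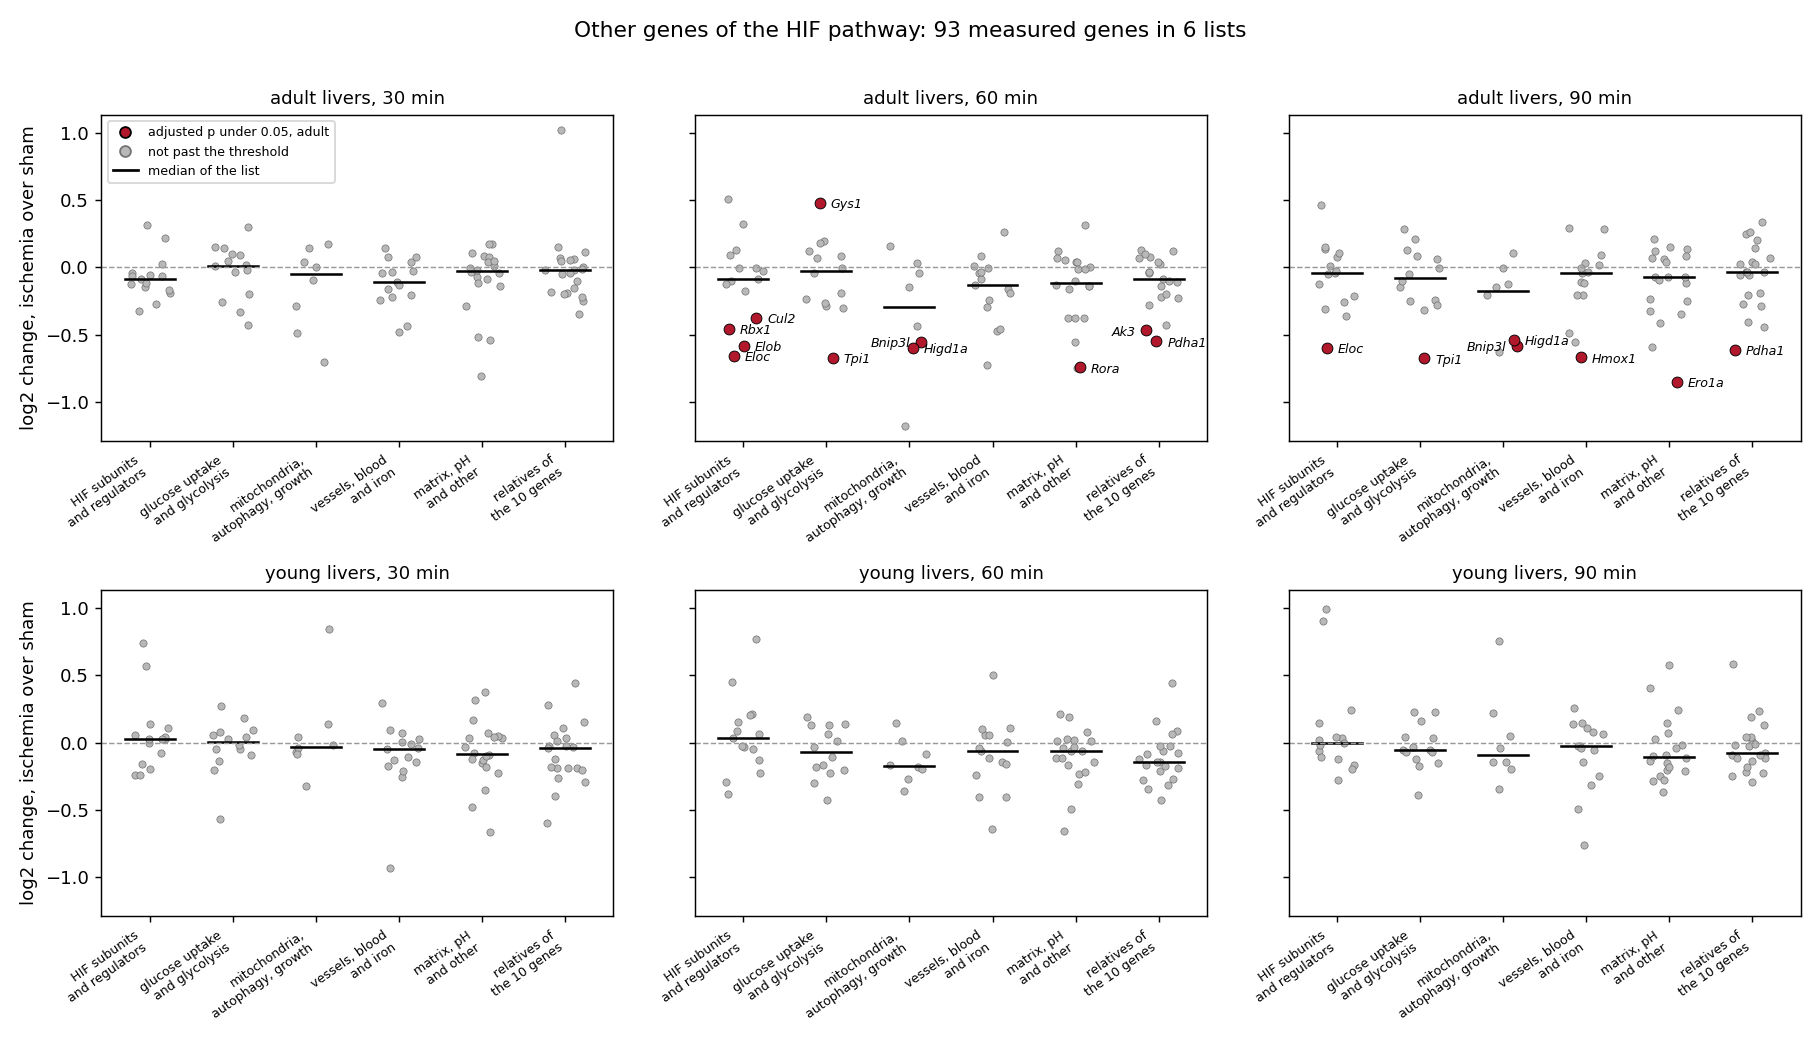
Log2 change of ischemia over sham (y axis) for the 93 measured genes of the 6 HIF lists (x axis) in adult livers (above) and young livers (below) at 30, 60 and 90 min, 1 grey point per gene and a line at each list's median. Genes that passed in limma are red and named, 10 lower and 1 higher in adult livers at 60 min and 7 lower at 90 min, with none in young livers.

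Most adult calls among these 93 genes were lost when any 1 of several arrays was left out, as were most calls over all 14351 genes. Why they were lost was not tested. The count of 11 at 60 min became 0 without the first or the third adult sham array or without the second or the third array after 60 min, and 5 without the second sham array. Over all genes 1712 calls became 14, 4, 23, 1 and 588 in the same order. The 7 of the 93 at 90 min became 0 without the first or the third adult sham array or any array after 90 min. There 1069 calls over all genes became 312 and 7, then 17, 91 and 266. With quantile normalization 0 of 93 passed at either time, and 0 and 3 of all genes at 60 and 90 min. Bnip3l kept its call in 2 of 6 such fits at 60 min, Eloc, Elob and Rbx1 in 1 of 6, and Cul2 and Higd1a in 0 of 6. Their signs did not change in any of them, with Bnip3l between -0.69 and -0.44.

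**Figure D4:**
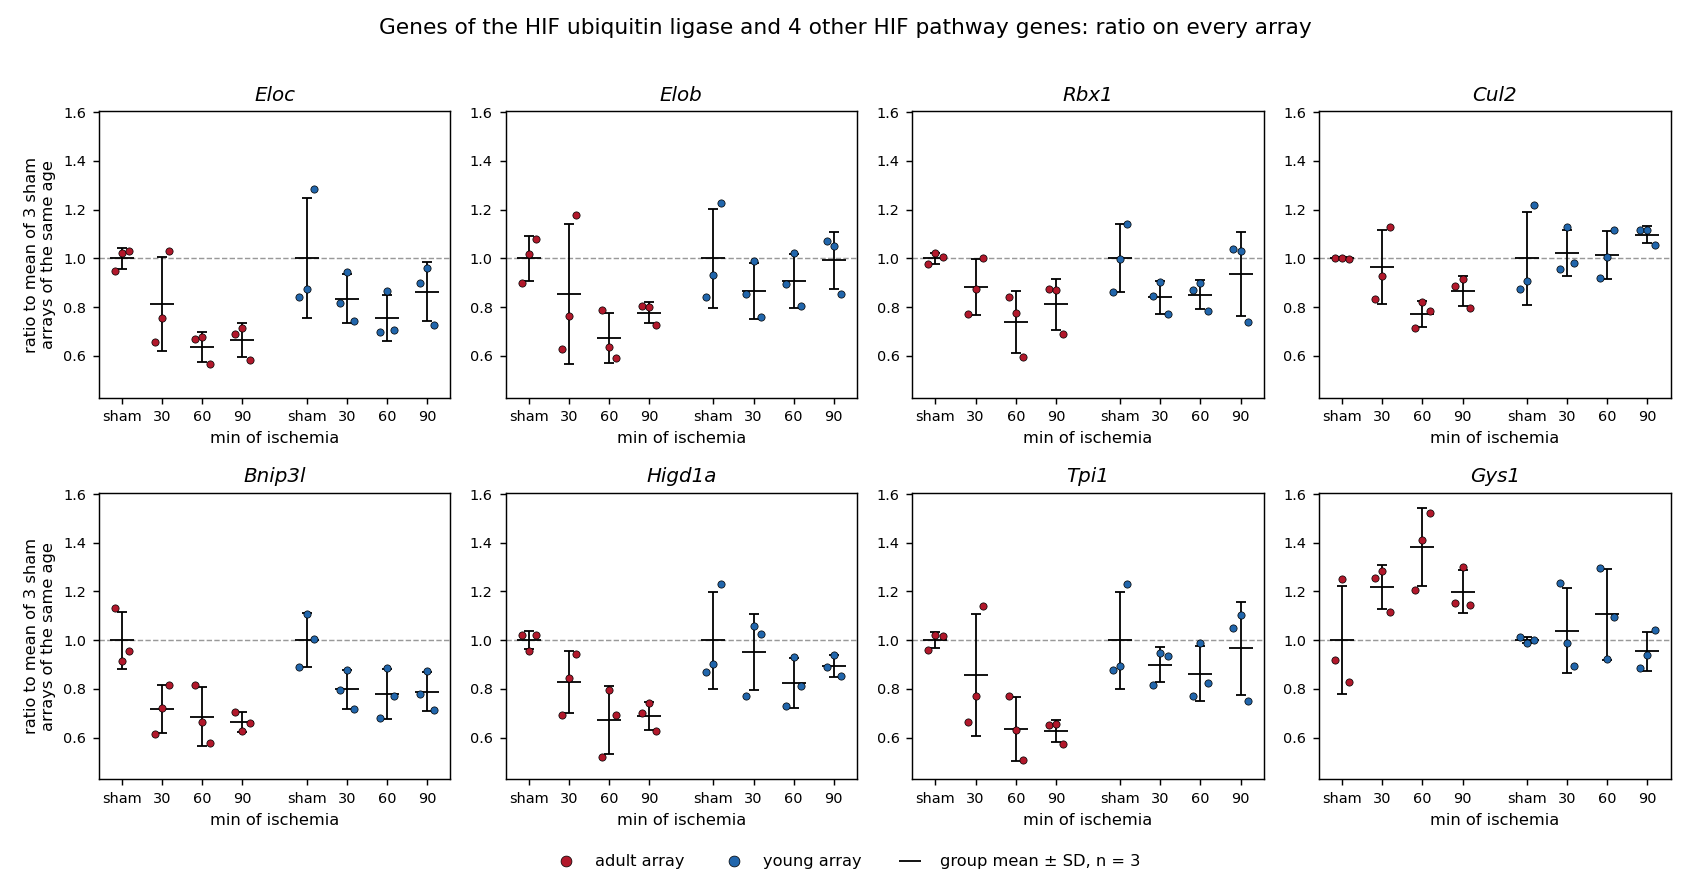
Ratio to the adult or young sham mean (y axis, linear) of 8 of the pathway genes named above, with 1 point per array, a line at the group mean and bars of 1 SD (n = 3), for adult and young livers in the order sham, 30, 60 and 90 min. Bnip3l lies below its sham arrays on all 9 ischemic adult arrays. At 60 and 90 min taken singly, 25.9% and 26.4% of all genes lie wholly below adult sham.

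Some lists of liver cell type markers moved beside the members' values in both ages, and others did not. Hepatocyte markers lay below 0 for 11 of 11 measured (of 12) at each adult time, with 0 called lower at 30 min, 1 at 60 min (Tdo2) and 1 at 90 min (Hnf4a). The mean of the list per array was -0.29 to -0.13 at 30 min, -0.62 to -0.14 at 60 min and -0.50 to -0.18 at 90 min, against -0.10 to 0.073 in adult sham. The means of this list did not overlap with sham at any adult time. At 30 min the members' mean did overlap with sham, at -0.31 to 0.050 against -0.095 to 0.14. Of the 7 members only Ak4 and Pdk1 lay wholly below sham there. Pericentral hepatocyte markers had 3 of 8 called lower at 60 min (Glul, Cyp1a2 and Oat) and 3 at 90 min (Oat, Slc1a2 and Rhbg), with means of -0.16 to 0.12, -0.47 to -0.36 and -0.41 to -0.33 at 30, 60 and 90 min against -0.26 to 0.12 in adult sham. Of all genes, 0%, 9.78% and 6.28% were called lower at 30, 60 and 90 min, and 57%, 58.7% and 56.5% lay below 0.

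Kupffer cells are the resident macrophages of the liver. Their markers lay below 0 at each adult time for 11 of 11 measured (of 12), with 0 called lower at 30 min, 1 at 60 min (Cd163) and 10 at 90 min. The list mean was -1.02 to -0.34 at 30 min, -1.06 to -0.24 at 60 min and -1.68 to -1.05 at 90 min, against -0.48 to 0.48 in adult sham. It overlapped with sham at 30 and 60 min and not at 90 min. The Kupffer calls stand beside 9.78% and 6.28% of all genes called lower at 60 and 90 min. Of all genes, 56.5% to 58.7% lay below 0 at the adult times. At 90 min the 1069 calls over all genes became 7 without the third adult sham array. T and NK cell markers lay above 0 for 9 of 9 measured (of 10) at each adult time, with none called at a single time and means of 0.18 to 0.32, 0.087 to 0.29 and 0.12 to 0.17 against -0.055 to 0.056 in adult sham. The other lists overlapped with adult sham at 60 and 90 min, where the members' mean lay below it. At 60 min periportal hepatocyte means were -0.59 to -0.041 against -0.28 to 0.21 in sham. Endothelial means were -0.21 to -0.060 against -0.098 to 0.044, and stellate cell means -0.15 to 0.042 against -0.12 to 0.078. The rest are neutrophil, red blood cell and cholangiocyte markers.

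In young livers at 60 min, where the members' mean lay below all sham arrays, the Kupffer, endothelial and stellate cell lists did so too, with none of their genes called. The means of neutrophil, red blood cell and cholangiocyte markers overlapped with young sham. So did those of T and NK cells, at 0.039 to 0.11 against -0.067 to 0.059. Kupffer cell markers lay below 0 for 11 of 11 there, with means of -0.85 to -0.32 against -0.17 to 0.26 in young sham. Endothelial markers lay below 0 for 11 of 12, with means of -0.35 to -0.22 against -0.080 to 0.051, and stellate cell markers for 11 of 12, with means of -0.47 to -0.22 against -0.12 to 0.088. Hepatocyte markers lay below 0 for 11 of 11 at 60 min, but their means of -0.35 to -0.027 overlapped with those of young sham, -0.15 to 0.078. In young livers at 60 min 55.3% of all genes lay below 0. At 90 min, where Vegfa was highest, 4 of 12 stellate cell markers were called lower in young livers (Reln, Rgs5, Colec11 and Ecm1), with list means of -0.51 to -0.36. Of all genes, 0.111% were called lower there. The 26 calls in either direction over all genes became 2 without the first or the second young sham array. Kupffer, endothelial and pericentral marker means also lay below young sham at 90 min, at -0.64 to -0.19, -0.27 to -0.18 and -0.22 to -0.19. The members' mean overlapped with young sham at 90 min, and also at 30 min. At 30 min endothelial means, -0.26 to -0.15, and periportal means, -0.48 to -0.26, nevertheless lay below young sham. Which markers are near 0 cannot be read from ratios, and the part of these cell types in the members' values was not tested.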

How the data were processed

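Liver RNA of 8 groups of 3 arrays was measured with a one-cycle biotin cRNA protocol, per the labels' protocols. The deposited values are ratios made by the authors with RMA, per the submitters' processing notes, which give no version. The 3 sham ratios of either age average 1, within 2e-07, at all 26180 probe sets, and array medians lay between 0.955 and 1.02. Array brightness is not kept, so precision is limited by the number of arrays.

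RefSeq accessions gave 15228 probe sets a symbol and 10952 none. For the 661 genes with more than 1, the probe set was chosen by accession type and then number. The log2 ratios of 14351 genes entered a limma fit (version 3.58.1, R 4.3.3) of 8 group means (16 residual and 4.53 prior degrees of freedom), two-sided and adjusted by Benjamini-Hochberg within a comparison. An error is limma's standard error unless SD is written. The fit was tested on simulated data. The members, lists, tests and naming rule (members, list genes that passed at a time, most alike genes) were chosen with earlier results of these data known. Alternatives were other probe set choices, normalizations, blocks, covariates, weights, 1 age alone, linear ratios and each array left out.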

Additional observations from a re-analysis of the deposited data

How the results depend on the processing

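Over 60 member values and the other settings, 570 of 598 values kept direction and side of the threshold, 9 newly passed and 19 turned sign; with each array left out, 436 of 456 kept both, 1 newly passed and 19 turned sign. The cause was not tested. Signs turned, mostly of changes near 0, with arrays blocked by the title code's first part (Vegfa young 30 min -0.014, Ak4 young 30 min 0.026, Ak4 young 90 min 0.048), with array weights (Vegfa young 30 min -0.030, Egln3 young 30 min 0.014, Hif1a young 90 min 0.037, Egln3 adult 30 min -0.36, Pdk1 young mean 0.026), with arrays centred on the median (Ak4 young 90 min 0.021, Vegfa adult 60 min 0.011, Ak4 adult 90 min 0.023), with the number that ends the title code as a covariate (Ak4 young 90 min 0.040, Pdk1 young 90 min -0.052, Vegfa adult 30 min 0.030, Egln3 adult 30 min -0.059, Ak4 adult 90 min 0.021), with quantile normalization (Vegfa adult 30 min 0.011, Vegfa adult 60 min 0.018, Ak4 adult 90 min 0.025). With 1 array left out, values ran from -0.027 to 0.069 (Vegfa young 30 min), -0.18 to 0.049 (Egln3 young 30 min), -0.073 to 0.066 (Ak4 young 90 min), -0.051 to 0.29 (Pdk1 young 90 min), -0.21 to 0.020 (Hif1a young 90 min), -0.14 to 0.031 (Vegfa adult 30 min), -0.31 to 0.28 (Egln3 adult 30 min), -0.10 to 0.020 (Vegfa adult 60 min), -0.11 to 0.055 (Ak4 adult 90 min), -0.20 to 0.025 (Egln1 adult 90 min) and -0.21 to 0.023 (Pdk1 young mean).

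Members passed only with array weights (Ak4 and Hif1a, 2, at adult 30 min and for the adult mean; Hif1a, 1, at 60 and at 90 min; Vegfa, 1, for the age difference at 90 min), with the covariate (Slc2a1 and Hif1a, 2, for the adult mean) and without the third adult 30 min array (Hif1a, 0 to 1 over arrays left out). Many of all 14351 genes passed in these fits. Weights gave 2259, 3306 and 3073 at adult 30, 60 and 90 min, 4295 for the adult mean and 1445 for the age difference at 90 min. For the adult mean the covariate gave 3245, and leaving out that array gave 3913. Among the 93 other HIF genes, the 11 calls at adult 60 min became 0 (quantile), 17 (weights), 4 (adult arrays alone), 1 (linear ratios) and 0 to 14 (1 array left out). Over all 14351 genes the 1712 calls there became 0, 3306, 587, 400 and 1 to 2177 in the same order. The 7 of the 93 at adult 90 min became 0, 14, 0, 1 and 0 to 5 in the same order, and 15 with the covariate. For all genes 1069 calls became 3, 3073, 47, 461 and 7 to 806, and 2450 with the covariate. The 8 of the adult mean became 0, 18, 0, 5 and 0 to 19, and 13 with the covariate. For all genes 1535 calls became 0, 4295, 17, 876 and 5 to 3913, and 3245 with the covariate. The 1 of the young mean became 2 (centred), 0 (quantile, block, covariate), 12 (weights), 3 (young arrays alone) and 0 to 1. For all genes 58 calls became 54, then 30, 13 and 47, then 652, 136 and 6 to 62. Array weights and the covariate were listed with earlier results known. A filter on dim probe sets was not run, as the ratios keep no signal over background. The labels carry no replicate numbers. The code's first part, which recurs across groups of an age, was the block fitted above, and with it 0 members passed in any comparison.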
